A study of Mus musculus with 15 samples.

Results

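Rgs2, Rasa3, Pdcd4, Lpin1 and Dmtn are 5 mouse genes whose signal after 6 h of stimulation, taken against unstimulated cells, stood higher in dendritic cells (DC) grown with interleukin-4 than in DC grown without it. They were chosen on the measured values themselves. Among the 8251 genes on the arrays, ranked by the 6 h response in one culture minus that in the other, they hold ranks 1, 2, 3, 4 and 6, so those differences are a description here and carry no test. Each gene has 1 probe set (a set of short oligonucleotides reporting 1 transcript), so 5 of the 12422 probe sets are described. The working name of the group, genes falling less with interleukin-4, holds for Rgs2, Rasa3, Pdcd4 and Lpin1. It does not describe Dmtn, whose signal was low in DC grown without interleukin-4 at every time and was higher at 6 h in DC grown with it.

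The cells came from bone marrow of female NOD mice aged 6 to 8 weeks, a strain that develops autoimmune diabetes. GM cells were cultured for 4 days with granulocyte-macrophage colony-stimulating factor (GM-CSF) at 1 ng/ml and separated on 16% metrizamide. GM4 cells received the same GM-CSF and interleukin-4 at 1 ng/ml and were separated on 14.5% metrizamide, so cytokine and density step cannot be told apart. Both were stimulated with lipopolysaccharide (LPS) at 10 µg/ml and interferon-γ at 50 ng/ml, and RNA was taken at 0, 6 and 20 h. GM had 3 arrays unstimulated, 2 after 6 h and 2 after 20 h, GM4 had 3, 3 and 2, and each was called a biological replicate in the labels. The protocol of 1 GM4 array at 0 h names neither the cytokine doses nor the gradient, and the source names of the GM4 arrays at 0 h mention the stimulus although their titles give 0 h.

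LPS is sensed by Toll-like receptor 4 and interferon-γ by its own receptor, and both switch a DC from taking up antigen to presenting it, with large waves of genes going up and down. Interleukin-4 signals through STAT6 and turns monocyte-derived cells towards DC and away from macrophages. Of the 5 genes, Rgs2 and Rasa3 encode brakes on membrane signalling: Rgs2 speeds the hydrolysis of GTP by the α subunit of heterotrimeric G proteins, above all Gq, and Rasa3 does the same for the small GTPases Ras and Rap1. Pdcd4 binds the helicase eIF4A and holds back the translation of structured messages, Lpin1 converts phosphatidic acid into diacylglycerol, and Dmtn (dematin) bundles actin and ties it to spectrin under the membrane, as first described in red cells.

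The authors had scaled the arrays to 1 trimmed mean, which largely sets their brightness, and the median signal was 40.1 to 48.5. Replicate arrays correlated at r = 0.966 to 0.988 over all probe sets. All 16 DC markers examined were measured and had a mean signal above 50 in every group, among them Itgax (CD11c), Cd74 and H2-Aa. The RNA itself differed between the cultures: the mean log2 ratio of the 3′ to the 5′ probe sets of Gapdh and β-actin, which goes up as RNA breaks down, was 0.786 ± 0.197 (SD, n = 7) in GM and 0.268 ± 0.114 (n = 8) in GM4, with no overlap (exact two-sided permutation within time, p = 0.000833, the smallest that the 1200 splits can give). The labels state that RNA quality was not good in every sample. Earlier work on these data had doubted 2 arrays, GM at 0 h replicate 3 and GM at 6 h replicate 1, and values without them are given below.

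The upstream sequences of the selected genes are shown next, since these genes were chosen on differences in RNA level. The windows reach from 250 bases before to 50 bases after the annotated start, are taken from RefSeq on build GRCm38.p6 and are printed on the coding strand. The table matched 4 of the 5 genes, with 5 windows, and capitals mark every match to 9 motifs searched on both strands.

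Rgs2, chr1:144004100-144004399, minus strand: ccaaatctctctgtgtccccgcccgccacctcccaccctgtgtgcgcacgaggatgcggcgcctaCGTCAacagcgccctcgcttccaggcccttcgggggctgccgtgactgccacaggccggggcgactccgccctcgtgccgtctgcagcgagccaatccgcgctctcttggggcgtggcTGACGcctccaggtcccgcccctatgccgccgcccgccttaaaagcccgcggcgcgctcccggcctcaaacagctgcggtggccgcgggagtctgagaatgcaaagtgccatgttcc

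Rasa3, chr8:13677538-13677837, minus strand: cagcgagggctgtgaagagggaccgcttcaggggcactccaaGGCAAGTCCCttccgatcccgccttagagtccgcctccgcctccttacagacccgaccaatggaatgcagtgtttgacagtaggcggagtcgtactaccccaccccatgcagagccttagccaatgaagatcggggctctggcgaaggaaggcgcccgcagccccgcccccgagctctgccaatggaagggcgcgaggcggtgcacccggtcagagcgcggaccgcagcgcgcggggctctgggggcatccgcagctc

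Pdcd4, chr19:53891981-53892280, plus strand: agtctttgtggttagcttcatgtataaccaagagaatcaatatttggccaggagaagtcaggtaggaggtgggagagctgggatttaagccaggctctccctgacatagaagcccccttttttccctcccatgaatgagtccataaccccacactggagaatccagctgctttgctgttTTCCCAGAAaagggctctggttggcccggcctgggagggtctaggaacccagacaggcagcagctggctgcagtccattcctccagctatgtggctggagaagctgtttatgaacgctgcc

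Lpin1, chr12:16610917-16611216, minus strand: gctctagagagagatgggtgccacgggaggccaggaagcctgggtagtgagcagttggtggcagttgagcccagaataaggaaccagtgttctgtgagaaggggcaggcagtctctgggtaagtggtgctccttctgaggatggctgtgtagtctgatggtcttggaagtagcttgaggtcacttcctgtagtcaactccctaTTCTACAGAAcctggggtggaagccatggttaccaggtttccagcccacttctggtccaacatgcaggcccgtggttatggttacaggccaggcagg

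The windows differed in base composition, with a GC content of 70% for Rgs2, 66.7% for Rasa3 and 55.3% for Lpin1. For Pdcd4 it was 52.7% in the window printed and 68.7% in the other window, which is not printed. Rgs2 held TGACG, the core of the cAMP response element, at 185 and 67 bases before the start, a match found in 20.8% of all 32851 mouse windows. Rasa3 held the NF-κB pattern GGGANNNNCC at 208 bases before the start, as did 20.7% of all windows. The printed Pdcd4 window held TTCNNNGAA, the general STAT site, at 71 bases before its start (8.3% of windows). Lpin1 held the variant with 4 spacer bases that STAT6 prefers, TTCNNNNGAA, at 47 bases before the start (6.95% of windows). The other motifs were the interferon element TTTCNNTTTC (3.44% of windows), the AP-1 site TGANTCA (7.81%), the forkhead site GTAAACA (3.65%), the E-box CACGTG (7.15%) and the GATA site AGATAA (11.2%). None of these 5 motifs was found in the 5 windows, and the other Pdcd4 window, at chr19:53903101-53903400, held no match at all. No motif was shared by all 3 of Rgs2, Rasa3 and Lpin1, no match overlapped another, and a match is a description of letters only.

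Rgs2 stood high in unstimulated GM cells. GM arrays gave signals of 594, 514 and 673 unstimulated, of 46.4 and 88.2 after 6 h and of 42.3 and 36.3 after 20 h. GM4 arrays gave 147, 158 and 174 unstimulated, 93.3, 111 and 93.9 after 6 h and 61.3 and 52.4 after 20 h. Every stimulated array was thus below every unstimulated array of its own culture, and the cultures changed places, with GM above GM4 at 0 h and below it at 6 and 20 h. The mean signal was 8.83-fold lower at 6 h and 15.1-fold lower at 20 h in GM, against 1.61-fold and 2.81-fold in GM4. On the log2(signal + 16) scale used for all differences below, the 6 h change was −2.91 ± 0.20 (SE) in GM and −0.61 ± 0.18 in GM4. In the order of the 6 group means only the neighbours GM at 6 h and GM4 at 20 h overlapped.

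Rasa3 began in the same way and then parted from Rgs2. GM arrays gave 492, 606 and 702 unstimulated, 77.9 and 124 after 6 h and 219 and 238 after 20 h. GM4 arrays gave 184, 236 and 180 unstimulated, 148, 117 and 126 after 6 h and 140.1 and 123 after 20 h. The GM arrays at 20 h stood above both GM arrays at 6 h, while the GM4 arrays at 6 and 20 h overlapped. The mean was 16.8% of its 0 h level at 6 h and 38.1% at 20 h in GM, and 65.1% and 65.7% in GM4. The log2 change at 6 h was −2.41 ± 0.19 in GM and −0.56 ± 0.17 in GM4, and GM4 overlapped GM at 6 h but lay below it at 20 h (−0.73 ± 0.21).

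Pdcd4 differed from both in starting level. Its signals at 0 h were 428, 376 and 415 in GM and 460, 429 and 350 in GM4, which overlap. At 6 h GM read 122 and 123 while GM4 read 495, 475 and 446. At 20 h GM read 52.0 and 46.8 and GM4 read 114 and 121, so that GM4 at 20 h lay beside GM at 6 h, with ranges of 114 to 121 and 122 to 123. The GM mean was 30.2% of its 0 h level at 6 h and 12.2% at 20 h, and the GM4 mean was 114% and 28.4%. GM4 exceeded GM by 1.81 ± 0.13 at 6 h and by 1.03 ± 0.14 at 20 h on the log2 scale, against 0.02 ± 0.12 at 0 h.

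Lpin1 resembled Rgs2 and Rasa3 at the start, at lower signals. GM arrays gave 134, 117 and 109 unstimulated, 16.1 and 13.1 after 6 h and 41.6 and 25.5 after 20 h. GM4 arrays gave 57.7, 45.1 and 34.1 unstimulated, 67.0, 40.4 and 28.7 after 6 h and 38.8 and 39.1 after 20 h. All 8 GM4 arrays and the GM arrays at 20 h formed 1 overlapping range, with the GM arrays at 0 h above it and those at 6 h below it. The log2 change at 6 h was −2.15 ± 0.26 in GM and −0.04 ± 0.24 in GM4. The GM signals at 6 h lie close to the constant of 16 added before taking logs, so the size of this change depends on it: the difference between the cultures' 6 h changes was 2.11 ± 0.36, or 2.89 with a constant of 1 and 1.21 with a constant of 64.

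Dmtn was the exception. GM arrays gave 26.6, 26.7 and 27.2 unstimulated, 27.7 and 31.0 after 6 h and 30.2 and 37.5 after 20 h. GM4 arrays gave 18.7, 16.0 and 32.8 unstimulated, 119, 147 and 123 after 6 h and 75.6 and 35.5 after 20 h. The 3 GM4 arrays at 6 h stood above all others, and the 2 GM4 arrays at 20 h disagreed, with 1 inside the GM range and the other above it. The GM4 mean at 6 h was 5.77-fold that at 0 h, a log2 difference of 1.94 ± 0.23, and the corresponding difference in GM was 0.08 ± 0.25. Detection calls were not used, so whether Dmtn was detected in GM is not stated. With a constant of 1 the difference between the cultures' 6 h changes moved from 1.86 ± 0.34 to 2.41, and with 64 to 1.13.

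**Figure D1:**
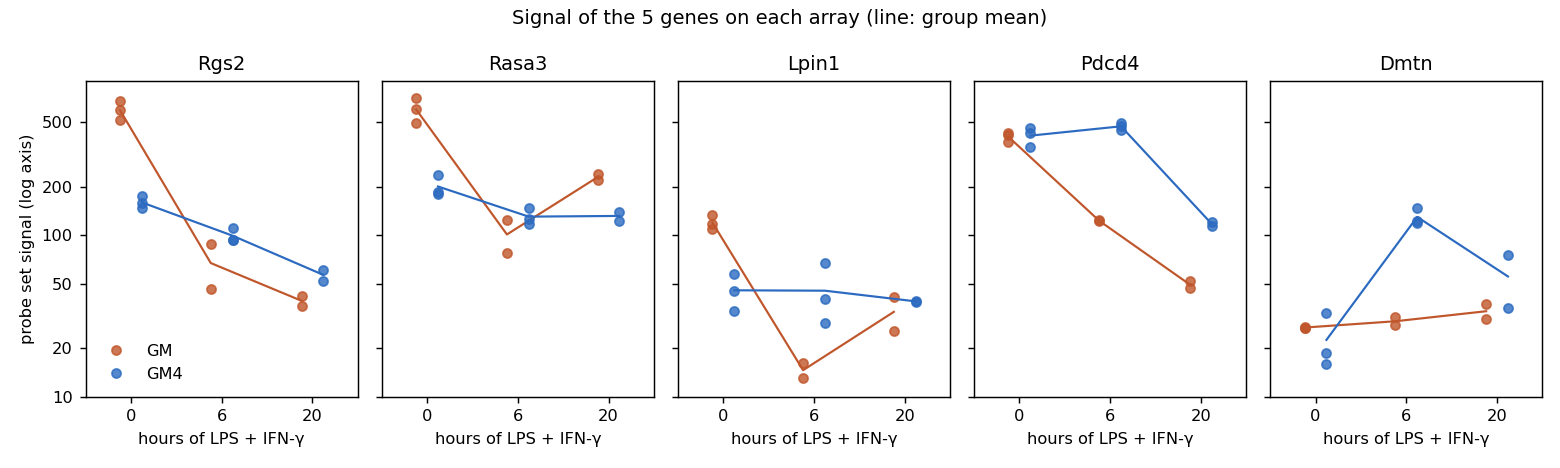
Probe set signal (log axis) of the 5 genes on each of the 15 arrays against hours of stimulation, shown as equally spaced categories, with GM in orange, GM4 in blue and lines through the group means. Rgs2, Rasa3 and Lpin1 start higher in GM than in GM4 and their means cross by 6 h, Pdcd4 starts equal and separates at 6 h, and Dmtn stands above 119 only on the 3 GM4 arrays at 6 h.

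Set side by side, the 5 genes took 3 routes to the same kind of difference. Against 0 h, the 6 h arrays of GM lay below without overlap for 4 genes and just above for Dmtn, where 15.7% of all probe sets were called lower and 8.52% higher in the same comparison (limma, adjusted p under 0.05). At 6 h in GM4 the arrays lay below for Rgs2 and Rasa3, above for Dmtn and overlapped for Pdcd4 and Lpin1 (10.0% of all probe sets called lower, 5.84% higher). By 20 h GM again lay below for 4 genes and above for Dmtn (16.0% and 11.0%), and GM4 lay below for Rgs2, Rasa3 and Pdcd4, above for Dmtn, and overlapped for Lpin1 (12.3% and 8.71%). These comparisons share the 0 h arrays, and the calls are read here only as the background. Lack of overlap between 2 or 3 arrays a group is a looser measure than a limma call, as with Dmtn in GM at 6 h (0.08 ± 0.25). The share of all probe sets without overlap was not counted.

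GM4 against GM at each time gives the same routes in another form. The shares of all probe sets set beside the genes are again limma calls, not shares without overlap. At 0 h GM4 lay below GM without overlap for Rgs2 (−1.79 ± 0.18), Rasa3 (−1.51 ± 0.17) and Lpin1 (−1.16 ± 0.24), and overlapped for Pdcd4 and Dmtn (7.12% of all probe sets lower, 6.86% higher). At 6 h it lay above for Rgs2 (0.51 ± 0.20), Pdcd4, Lpin1 (0.96 ± 0.26) and Dmtn (1.68 ± 0.25), and overlapped for Rasa3 (0.34 ± 0.19), where 6.39% of all probe sets were higher and 4.74% lower. At 20 h it lay above for Rgs2 (0.40 ± 0.22) and Pdcd4, below for Rasa3, and overlapped for Lpin1 (0.17 ± 0.29) and Dmtn (0.47 ± 0.28), against 3.14% higher and 1.56% lower. For Rgs2 and Rasa3 most of the difference between responses therefore lay in the 0 h level, with a 0 h gap of 1.79 of 2.30 and of 1.51 of 1.85. For Lpin1 the 0 h gap was 1.16 and the 6 h gap 0.96. GM4 minus GM for Lpin1 at 0 and 6 h was −0.75 and 0.46 with a constant of 64. Without the 2 doubted arrays it was −1.215 and 1.027. With a constant of 1 the gaps were 1.40 and 1.49, so which time held more of the difference between responses depended on the constant. For Pdcd4 and Dmtn that difference lay at 6 h. In these bulk samples fewer cells of a type and less RNA per cell cannot be told apart.

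**Figure D2:**
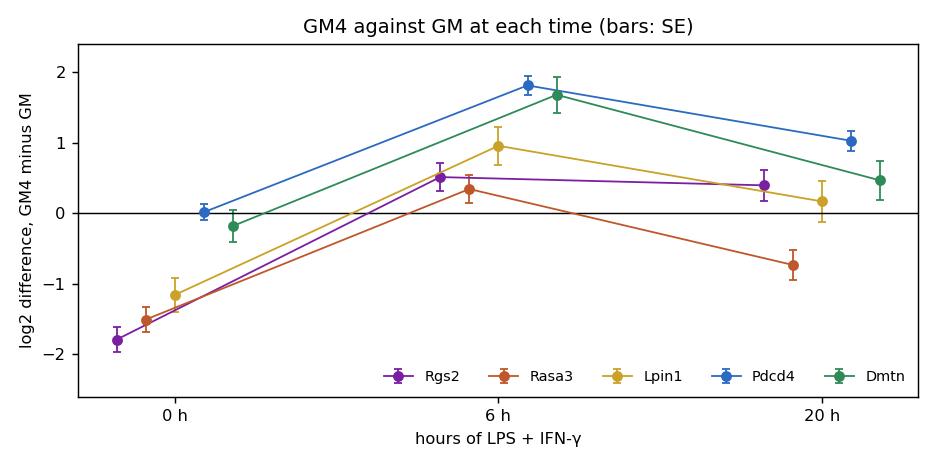
Log2 difference of GM4 minus GM for each gene (points joined by lines, 1 colour a gene, bars for the SE from the fit over 15 arrays) against hours of stimulation, shown as equally spaced categories. Rgs2, Rasa3 and Lpin1 lie below 0 at 0 h, all 5 lie above 0 at 6 h, and at 6 h Pdcd4 and Dmtn lie farthest above it, at 1.81 and 1.68.

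The 6 h response in GM4 minus that in GM was 2.30 ± 0.27 for Rgs2, 2.11 ± 0.36 for Lpin1, 1.86 ± 0.34 for Dmtn, 1.85 ± 0.26 for Rasa3 and 1.80 ± 0.18 for Pdcd4. The median over all genes was 0.05 with an SD of 0.459. In this contrast 0.443% of all probe sets were called higher and 0.515% lower, from which nothing is read for genes chosen on these arrays. Just outside stood Coch (cochlin) at rank 7 with 1.77 ± 0.29, and Rab34, a vesicle GTPase, lay between Rasa3 and Pdcd4 with 1.85 ± 0.64. At 20 h the same kind of difference was 2.19 ± 0.28 for Rgs2, 1.32 ± 0.37 for Lpin1, 1.01 ± 0.18 for Pdcd4, 0.77 ± 0.27 for Rasa3 and 0.64 ± 0.36 for Dmtn, against 0.555% of probe sets called higher and 0.708% lower.

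**Figure D3:**
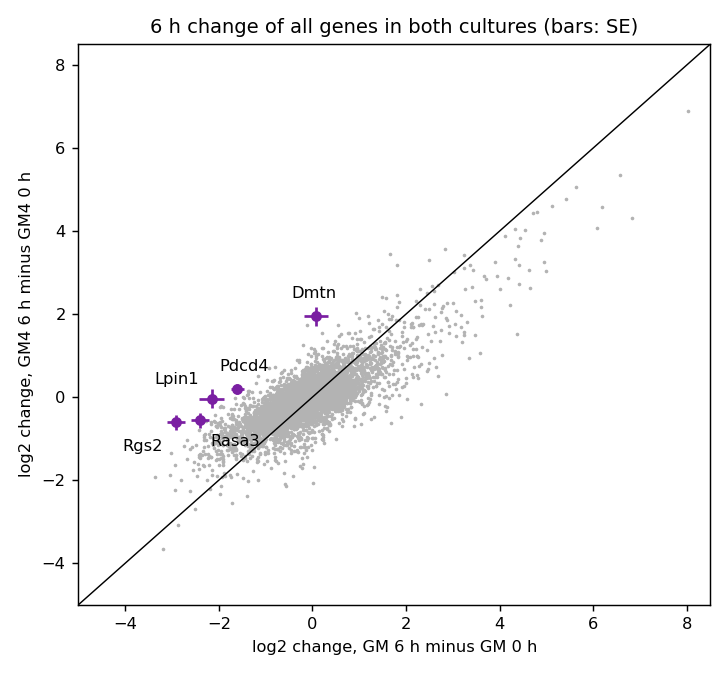
Log2 change from 0 to 6 h in GM (horizontal) and GM4 (vertical) for 8251 genes in grey, the 5 genes in purple with SE bars, and the line of equal change. Rgs2, Rasa3, Lpin1 and Pdcd4 lie above the line at the left, at −2.91 to −1.60 in GM and −0.61 to 0.19 in GM4, and Dmtn lies above the line at 0.08 and 1.94.

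The 2 GM arrays at 6 h differed for Rgs2 and Rasa3 and hardly for Pdcd4. Without GM at 6 h replicate 1, GM4 minus GM at 6 h was 0.14 for Rgs2 and 0.06 for Rasa3, and without replicate 2 it was 0.88 and 0.63. Without both doubted arrays the difference of 6 h responses was 1.84 for Rgs2, 1.44 for Rasa3, 2.24 for Lpin1, 1.77 for Pdcd4 and 1.80 for Dmtn. With the 3′ to 5′ ratio of each array as a covariate these differences were 2.31, 1.85, 2.10, 1.79 and 1.86. The same covariate moved GM4 minus GM for Lpin1 to −1.61, 0.49 and −0.41 at the 3 times in turn, and for Pdcd4 to 1.68 at 6 h and 0.86 at 20 h. That ratio did not overlap between the cultures. With it as a covariate, here and below, GM4 minus GM cannot separate RNA quality from culture. Over 26 alternative settings all 130 values of the 6 h difference stayed above 0, which is no test for genes chosen on these arrays.

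**Figure D4:**
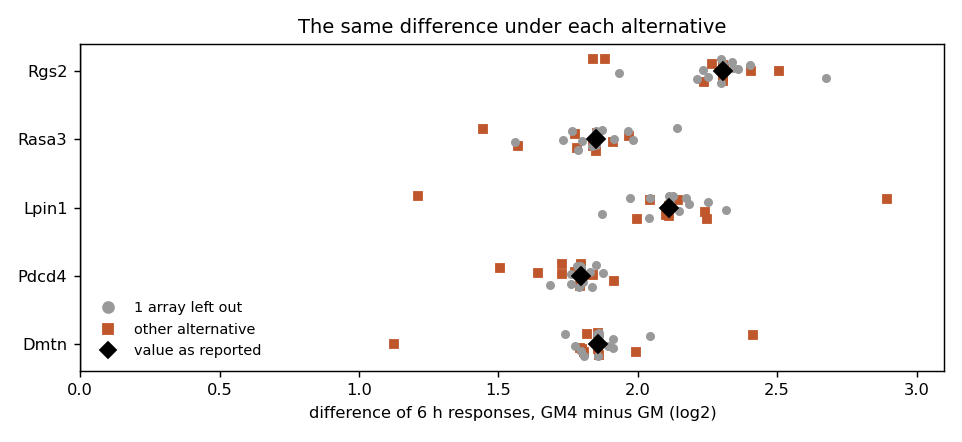
Difference of 6 h responses, GM4 minus GM (log2), for each gene under 26 alternative settings: grey circles leave out 1 array, orange squares are other alternatives and black diamonds are the values as reported. The widest spreads are those of Lpin1 (1.21 to 2.89) and Dmtn (1.13 to 2.41), at added constants of 64 and 1.

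Some markers of other cells differed between the cultures. The summed signal of 11 monocyte and macrophage markers was 13754 to 16980 in GM and 4836 to 5422 in GM4 at 0 h, 17840 to 24804 and 4902 to 6622 at 6 h, and 15026 to 16133 and 8721 to 8764 at 20 h. Of these 11 markers, 9 were called lower in unstimulated GM4, 10 after 6 h and 4 after 20 h. Their part in the lower 0 h signals of Rgs2, Rasa3 and Lpin1 was not tested. For Dmtn the lists of interest are red cells and platelets. The summed signal of 12 erythroid markers was 961 to 1022 in GM4 at 0 h and 786 to 956 at 6 h, a sum carried largely by Car2 and Ank1, with means of 391 and 144 over all arrays. In GM the sum was 646 to 770 at 0 h and 1069 to 1131 at 6 h. The median log2 change of the 12 at 6 h in GM4 was 0.127 with none called (limma, 2 at an unadjusted p under 0.05). Their part in the Dmtn signal was not tested, and Hba-a1 (α-globin) stayed between 11.5 and 81.6 on all arrays. Of the erythroid markers 3 had a group mean under 16 in GM4 at 6 h, and the 6 platelet markers summed to 103 to 150 there, with Pf4 at most 17.7 on any array. The 16 neutrophil markers summed to 9844 to 10043 in GM and 9987 to 15613 in GM4 at 0 h, the 8 B cell markers to 539 to 877 and 1246 to 1976 (7 of the 8 had means under 50 in both, and Blnk carried most of the sum), and the 10 T and NK cell markers to 112 to 142 and 79.3 to 110. Limma called 3 neutrophil markers higher and 3 lower in GM4 at 0 h, so their sum hides opposite changes.

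Over the 15 arrays Rgs2, Rasa3 and Lpin1 followed each other, with Pearson r = 0.822 for Rgs2 and Rasa3, 0.824 for Rgs2 and Lpin1, and 0.832 for Rasa3 and Lpin1. Pdcd4 followed Rgs2 (0.686) and Lpin1 (0.543) more than Rasa3 (0.27), and Dmtn ran from −0.427 with Rasa3 to 0.195 with Pdcd4. These arrays share 6 groups, so the correlations describe group means above all. The selected genes were also chosen on a difference among these groups, so likeness between them is partly built in by that choice. The 3 genes most like each were sought among those with a mean signal of at least 100. For Rgs2 they were Haus3 (r = 0.96), a part of the augmin complex that seeds spindle microtubules, Mid1ip1 (0.948), an activator of acetyl-CoA carboxylase, and Kpnb1 (0.946), the nuclear import receptor importin β. Mid1ip1 and Haus3 also headed the list for Lpin1 (0.854 and 0.844), before the replication licensing factor Cdt1 (0.843). Mid1ip1 read 428 ± 50.0 in GM and 173 ± 24.0 in GM4 at 0 h (SD, n = 3) and 88.2 ± 4.87 (n = 2) and 124 ± 10.8 (n = 3) at 6 h, the same crossing.

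Rasa3 was followed by Klhl9 (0.946), a substrate adaptor of a ubiquitin ligase, Pdxk (0.933), the pyridoxal kinase, and Svil (0.932), the actin-binding supervillin. Pdcd4 was followed by Ndufv2 (0.972), a subunit of respiratory complex I, U2af1 (0.969), a splicing factor, and Nap1l1 (0.958), a histone chaperone. Ndufv2 read 678 ± 32.5 in GM and 770 ± 44.7 in GM4 at 0 h (n = 3) and 425 ± 69.6 (n = 2) and 760 ± 65.9 (n = 3) at 6 h. The best match of Dmtn was weaker, with Zbtb22 (0.849), Atp6v1d (0.847), a subunit of the vacuolar proton pump, and Acp6 (0.844), a lysophosphatidic acid phosphatase. Acp6 read 113 ± 7.78 and 133 ± 6.16 in GM and 106 ± 4.12 and 342 ± 26.8 in GM4 at 0 and 6 h, so it too was high in GM4 at 6 h alone. These genes were picked for likeness on the same arrays, so their values are a description.

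Around Rgs2, 41 of 53 listed genes of RGS proteins and G protein signalling were measured. On the difference of 6 h responses 1 gene was called higher and 2 lower, with a list median of 0.02 beside 0.05 for all genes. Grk6, a kinase that uncouples G protein-coupled receptors, went the way of Rgs2 (1.62 ± 0.28, limma adjusted p = 0.0135): its mean signal was 216 in GM and 223 in GM4 at 0 h, and 27.7 and 122 at 6 h. Gna13, the Gα13 subunit, and Gng12, a γ subunit, went the other way (−1.07 ± 0.22, limma adjusted p = 0.0342, and −1.05 ± 0.23, adjusted p = 0.046), with Gna13 going from 464 to 1460.3 in GM and from 449.9 to 665 in GM4. Grk6 passed in all 26 alternatives, whereas Gna13 and Gng12 were no longer called in 9 and 13 of the 15 fits without 1 array.

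Among the 12 other RGS genes measured, none was called on the difference of 6 h responses. Rgs4, Rgs6, Rgs7 and Rgs9 had means under the added constant of 16 in every group, and Rgs11 in every GM4 group. Log2 differences are compressed there, so the lack of a call says little for these genes. Rgs10 was higher in GM4 at 0 h (0.84 ± 0.16), 6 h (1.42 ± 0.18) and 20 h (1.54 ± 0.20, adjusted p = 0.00074) and fell in both cultures by 20 h (−1.97 ± 0.18 in GM and −1.27 ± 0.18 in GM4), its 0 h difference not passing when its 3 probe sets were averaged (0.39). Rgs14 was lower in GM4 at 0 h (−1.12 ± 0.21, limma adjusted p = 0.00293) and 6 h (−0.84 ± 0.24, adjusted p = 0.0371), and rose in GM4 by 20 h (1.02 ± 0.24). Its 6 h call was lost in 9 of the 15 fits without 1 array, and its rise without GM4 at 20 h replicate 2 (1.03). Rgs19 fell in GM4 at 6 and 20 h (−1.32 ± 0.38 and −1.29 ± 0.43), calls that were lost in 5 and 12 of the fits without 1 array and when its probe sets were averaged (−0.56 and −0.53). Of the list, 4 of 41 genes were higher and 6 lower in GM4 at 0 h, beside 6.86% and 7.12% of all probe sets, led by the β subunit gene Gnb4 (1.75 ± 0.25, limma adjusted p = 0.000331) and with the adenylyl cyclase gene Adcy7 lower (−1.01 ± 0.30, adjusted p = 0.041, lost in 12 of the fits without 1 array, with −0.72 the value nearest 0). At 6 h 2 were higher and 2 lower, and at 20 h Rgs10 alone was called. On the difference of 20 h responses limma called none, with 6 genes at an unadjusted p under 0.05.

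Around Rasa3, 32 of 50 listed genes of the Ras and Rap switch and the ERK kinases were measured, and on the difference of 6 h responses only Rassf5 was called. Rassf5, a Ras and Rap effector that activates integrins, read 431 in GM and 343 in GM4 at 0 h and 95.7 and 159 at 6 h (0.96 ± 0.17, adjusted p = 0.0135, passing in all 26 alternatives). Rasa4, a Ras GTPase-activating protein of the same family as Rasa3, rose in both cultures at both times, by 2.22 ± 0.24 and 2.06 ± 0.24 at 6 and 20 h in GM and by 2.32 ± 0.22 and 2.03 ± 0.24 in GM4. Rasal3 fell at 6 h in GM (−0.92 ± 0.29, limma adjusted p = 0.0299, lost without GM at 0 h replicate 1 or 2 or either GM array at 6 h), and Rasa1 and Rasal1 passed in no comparison. In GM4 against GM, Rassf2 was higher at all 3 times (1.40 ± 0.17, 1.85 ± 0.19 and 1.54 ± 0.20). Others called were Spred2 (1.01), Map2k1 (0.96) and Rasgrp2 (−0.80) at 0 h, Mras (1.06) and Sos2 (0.79) at 6 h, and the adaptor Grb2 (−0.84) at 20 h. Of these 6 genes Rasgrp2 alone was called without each array in turn. With the RNA ratio as a covariate Map2k1 was 0.27, and Map2k1, Spred2, Sos2 and Grb2 were not called. On the difference of 20 h responses limma called none, with 4 genes at an unadjusted p under 0.05.

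Around Pdcd4, 41 of 55 listed partners and translation initiation genes were measured. At 6 h in GM 12 of 41 fell and 2 rose (15.7% and 8.52% of all probe sets), and by 20 h 18 fell and 4 rose (16.0% and 11.0%). In GM4 12 fell and 3 rose at 6 h (10.0% and 5.84%), and 12 fell and 1 rose by 20 h (12.3% and 8.71%). More falls than rises were thus called over all probe sets too, although median centring turned that split over all probe sets in GM. The list had medians of −0.28, −0.46, −0.23 and −0.22 beside −0.05, 0.00, −0.02 and 0.02 over all genes. Eif4a2, an eIF4A helicase that Pdcd4 binds, fell at 6 h in GM (−0.92 ± 0.16) and in GM4 (−0.51 ± 0.14), and was higher in GM4 at 0 h (0.51 ± 0.14) and 6 h (0.92 ± 0.16). Its 0 h difference and its fall in GM4 were each lost in 4 of the fits without 1 array. Eif4a1, the other target, fell at 20 h in GM (−1.11 ± 0.28, limma adjusted p = 0.00755, lost at −0.65 without GM at 20 h replicate 2). Between the cultures 3 of 41 genes were called higher in unstimulated GM4, 5 after 6 h and 4 after 20 h (6.86%, 6.39% and 3.14% of all probe sets) and none lower, or 4 higher and 1 lower at 6 h with median centring. Among them were Eif3c at all 3 times (0.84, 0.82 and 0.89), Mknk2 at 0 and 6 h (0.70 and 1.24), Eif4b at 6 h (0.72) and Eif3e, Eif1a and Eif3d at 20 h (1.04, 1.01 and 0.95). With the RNA ratio as a covariate, of the calls named here those of Mknk2 at 6 h and Eif3d at 20 h were kept, and those of Eif3c (0.46, 0.42 and 0.40), Mknk2 (0.42) and Eif4a2 (0.38) at 0 h, Eif4a2 and Eif4b at 6 h, and Eif3e and Eif1a (0.54) at 20 h were not. Eif4b was 0.21 and not called when its probe sets were averaged, and Eif4b and the 4 genes at 20 h lost their calls without 1 of several arrays. On the differences of 6 h and 20 h responses limma called none of the 41, with 4 and 7 genes at an unadjusted p under 0.05.

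Around Lpin1, 33 of 54 listed genes of glycerolipid synthesis and breakdown were measured. Lpin2, a phosphatidic acid phosphatase of the same family, rose by 0.90 ± 0.26 in GM and 0.94 ± 0.26 in GM4 by 20 h, calls lost without GM at 20 h replicate 1 (0.54) or GM at 0 h replicate 2 (0.86), and without either GM4 array at 20 h (0.81 and 1.06) or GM4 at 0 h replicate 3 (0.85). Gpd2, the mitochondrial glycerol phosphate dehydrogenase, was called lower on the difference of 6 h responses (−1.15 ± 0.24, limma adjusted p = 0.0342), having risen from 269 to 1249 in GM and from 422 to 855 in GM4. Lpl, the lipoprotein lipase, was called higher on the difference of 20 h responses (1.31 ± 0.26, limma adjusted p = 0.0302), at 499 in GM and 979 in GM4 at 20 h. The calls were lost in 7 (Gpd2) and 7 (Lpl) of the fits without 1 array. Dgka, which turns diacylglycerol, the product of lipin, back into phosphatidic acid, differed most between cultures among the called genes of the list, with 82.1 in GM and 473 in GM4 at 0 h (2.31 ± 0.16, limma adjusted p = 3.21e-06) and differences of 2.45 ± 0.18 at 6 h and 2.67 ± 0.20 at 20 h. Called higher at 0 h was Lipe (1.01) and lower were Lipa (−0.91) and Dgat1 (−0.85). At 6 h Plpp3 (−1.57) and Pld3 (−1.16) were lower and Pcyt1a (0.98) higher. The calls of Lipe, Dgat1 and Pcyt1a were lost in 2, 4 and 1 of the fits without 1 array, Pcyt1a at 0.64 without GM at 6 h replicate 1. With the RNA covariate Lipe, Lipa and Pcyt1a were not called, and Pcyt1a was 0.47 and not called when its probe sets were averaged.

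Around Dmtn, 28 of 41 listed genes of the spectrin and actin membrane skeleton were measured. In GM4 against GM 6 were higher and 4 lower at 0 h (6.86% and 7.12% of all probe sets), and 4 higher and 4 lower at 6 h (6.39% and 4.74%), with medians of −0.06 and −0.03 beside −0.06 and −0.02 for all genes. Of the widely expressed spectrin and adducin genes, 3 were higher in GM4 at 0 and 6 h: Sptan1 (αII-spectrin) by 0.90 ± 0.18 at 0 h and 0.99 ± 0.20 at 6 h, Sptbn1 (βII-spectrin) by 0.69 ± 0.099 and 0.82 ± 0.11, and Add1 (α-adducin) by 0.62 ± 0.12 and 1.25 ± 0.13. Sptan1 lost its 6 h call without GM at 6 h replicate 1 (0.83), and both calls with the RNA covariate (0.70 and 0.78). Add1 fell at 6 h in both cultures (−1.28 ± 0.13 in GM and −0.65 ± 0.12 in GM4), where Dmtn was high in GM4. On the difference of 6 h responses Svil alone was called (0.99 ± 0.20, limma adjusted p = 0.0319, lost in 7 of the 15 fits without 1 array), from 1254 to 359 in GM and from 518 to 298 in GM4. Svil was also the gene of this list that followed Rasa3. The actin-severing Scin was higher in GM4 at all 3 times (1.35, 1.05 and 1.07), the later calls being lost without 1 array (1 and 4 fits) and with its probe sets averaged (0.45 and 0.57), Mpp1 was lower at 0 h (−1.01 ± 0.18) and the glucose transporter gene Slc2a1 was lower at 6 h (−1.74 ± 0.34, −1.07 and not called without GM at 6 h replicate 1). Vil1 was called higher in GM4 at 20 h (0.74 ± 0.10) and on the difference of 20 h responses, at mean signals of 12.7 in GM4 and 1.16 in GM, both under the added constant.

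**Figure D5:**
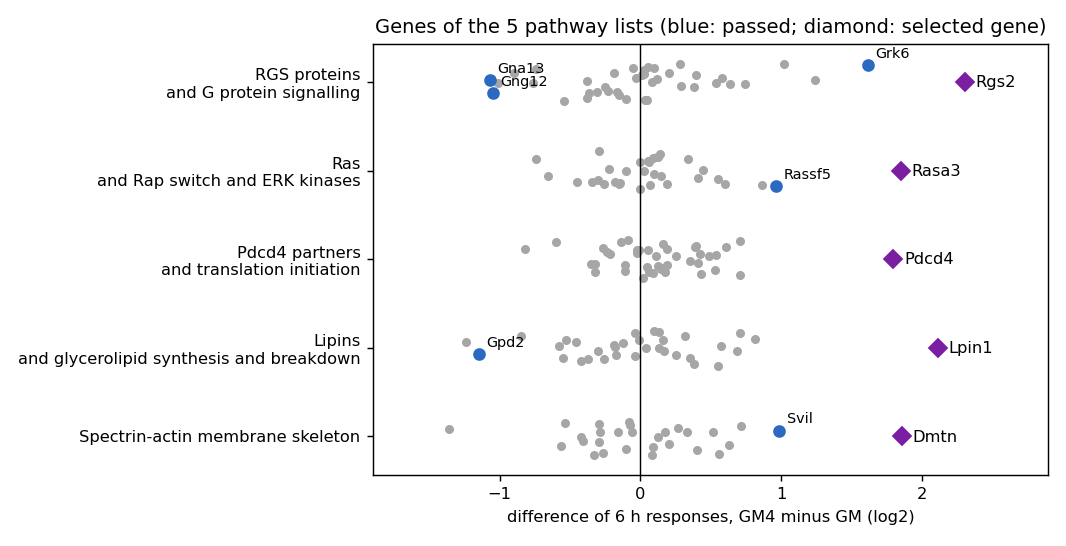
Difference of 6 h responses, GM4 minus GM (log2), for the measured genes of the 5 lists, 1 row per list: grey points did not pass, blue named points passed at an adjusted p under 0.05, and purple diamonds mark Rgs2, Rasa3, Pdcd4, Lpin1 and Dmtn, which were chosen on these arrays. Of the list genes 6 passed, from −1.15 for Gpd2 to 1.62 for Grk6.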

How the data were processed

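RNA of 15 cultures was hybridised to Affymetrix mouse arrays, 1 each. Each deposited value is 1 probe set's linear intensity. MAS5 is named in the submitters' processing notes, with its version not given in the sources used here, and the authors had scaled the arrays, since the 2% trimmed mean was 150.1 on all 15. Control probe sets (66) were left out. Of the rest, 10833 carried 1 gene symbol, 396 several and 1193 none, and a gene is its probe set with the highest mean. The number of arrays limits the precision. A constant of 16 was added before log2, and 6 group means were fitted to all 15 arrays with limma 3.58.1 in R 4.3.3 (trend, 9 residual degrees of freedom). P-values were adjusted by Benjamini-Hochberg over 12422 probe sets. The fit was tested on simulated data.

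The 5 genes and the lists were chosen with earlier results of these data known. The rule that chose the genes names no time, so their values are given with no test. Of each list, the text names relatives of the selected gene and up to 4 called genes per comparison of the cultures with the largest difference. It names the 3 genes most correlated with each selected gene, and Coch and Rab34 by rank. The limma p-values set a difference of group means against the spread between these arrays, estimated over all 6 groups. The permutation p-value sets the difference in RNA ratio against relabelled arrays. The alternatives were other constants, scalings, filters, weights, a covariate and left-out arrays. Promoters were read with Python 3.11.15.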

Additional observations from a re-analysis of the deposited data

Results flagged for a closer look

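Of the genes in the pathway lists, 8 differed between GM and GM4 in their response to stimulation, taken as GM4 minus GM on the log2 scale. The lists held 41, 32, 41, 33 and 28 measured genes, and the calls are by limma's test of that difference (adjusted p under 0.05). Over all probe sets 0.443% were called higher and 0.515% lower at 6 h, and 0.555% and 0.708% at 20 h. At 6 h Grk6 was 1.62, Svil 0.99 and Rassf5 0.96, and Gpd2 was −1.15, Gna13 −1.07 and Gng12 −1.05. At 20 h Lpl was 1.31 and Vil1 0.75. Of these 8 genes Grk6 and Rassf5 alone passed in every alternative. The signals of Vil1 lay under the added constant, and with a constant of 1 it was 2.69 and not called. Svil was also among the genes picked for likeness to Rasa3.

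The other genes listed for the same difference were chosen on it or for likeness to genes chosen on it, so their values are a description. At 6 h Rgs2 was 2.30, Lpin1 2.11, Dmtn 1.86, Rasa3 1.85 and Pdcd4 1.80, and at 20 h Rgs2 was 2.19 and Pdcd4 1.01. Coch, the next by rank, was 1.77. Of the genes picked for likeness, Mid1ip1 was 1.66, Acp6 1.34, Haus3 1.06, Pdxk 0.98 and Klhl9 0.87. Averaging the probe sets gave 0.85 for Mid1ip1, 0.65 for Pdxk and 0.62 for Acp6. No group held the 4 arrays needed to test for an array apart.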

How the results depend on the processing

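Groups held 2 or 3 arrays, which limits every value. All 5 genes kept the sign of their 6 h difference, which is no test for genes chosen on these arrays. With a constant of 1, Pdcd4 was 1.92, Lpin1 2.89 and Dmtn 2.41, and with 64 Rgs2 was 1.88, Rasa3 1.57, Pdcd4 1.504, Lpin1 1.21 and Dmtn 1.13. Quantile normalization gave 1.64 for Pdcd4, and leaving out the 2 doubted arrays 1.84 for Rgs2 and 1.44 for Rasa3. At 20 h, GM4 minus GM for Pdcd4 was 1.23 and 0.68 with those constants and 0.86 with the RNA ratio as covariate, which also turned Lpin1 to −0.41.

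Leaving out 1 array moved the 6 h difference from 1.93 to 2.67 for Rgs2 and from 1.56 to 2.14 for Rasa3, both ends set by the 2 GM arrays at 6 h, and GM4 minus GM at 20 h for Dmtn from 0.052 to 0.88, set by the 2 GM4 arrays at 20 h. Counts of called probe sets without 1 array were 1929 to 3024 (3012 in all) for GM at 6 h, 1392 to 2711 (2606) for GM4 at 20 h, 1114 to 1743 (1736), 604 to 1464 (1383) and 146 to 650 (584) for GM4 against GM at 0, 6 and 20 h, and 54 to 298 (119) and 15 to 168 (157) for the differences of 6 h and 20 h responses. List genes called were 30 to 51 (47) and 29 to 56 (50) for GM4 at 6 and 20 h, 21 to 34 (35), 16 to 33 (29) and 4 to 15 (11) for GM4 against GM, and 2 to 7 (6) and 0 to 4 (2) for the differences.

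The dim-probe filter gave 215 calls on the 6 h difference. Array weights gave 230 there, 304 on the 20 h difference, 3000 for GM4 at 6 h (1970), and 17 list genes at 20 h and 4 on the 20 h difference. The replicate block gave 206 and 260 calls on the differences (119 and 157 without it). Deviations of same-numbered arrays correlated at r = −0.00118 to 0.454 (median 0.123, 20 of 33 pairs over 0.1, against a median of −0.0884 for different numbers). Same-numbered arrays were thus more alike in the median, although not every pair exceeded 0.1. Deviations from the mean of a group of 2 arrays are exact opposites. The median for different numbers therefore partly mirrors that for the same number, the pairs are not independent, and the comparison is a description. The main fit did not pair the arrays, so an effect shared by replicate number, if there is one, is not removed from it. The RNA covariate gave 964, 794 and 335 calls for GM4 against GM, 16 list genes at 0 h and 4 on the 20 h difference. Its values did not overlap between GM and GM4, so the counts for GM4 against GM cannot separate RNA quality from culture. Without the 2 doubted arrays there were 1958 calls for GM at 6 h, 678 for GM4 against GM at 6 h with 18 list genes, and 4 on the 20 h difference. Median centring and a constant of 1 each gave 1 list gene there. Median centring moved the median of all probe sets in GM from −0.01 to 0.11 at 6 h and from 0.01 to 0.13 at 20 h, and the share of higher calls from 35.1% to 52.3%, 40.8% to 54.5%, 49.1% to 60.7% (GM4 against GM at 0 h), 46.2% to 32.1% and 43.9% to 28.8% (the differences). The cause of these changes was not tested. Of 86 named calls of other genes, 46 held without each array in turn and 37 in every alternative, with no sign change. Many of these genes were named because they were called with the largest differences. Others were picked on these arrays by rank or for likeness to the selected genes, and a gene can count more than once. The tally is therefore a description and no independent check.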
